A study of Canis lupus familiaris with 29 samples.

Results

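ICAM1, VCAM1, SAA1 and C3 are 4 genes whose transcription is known to be raised by NF-kB in many cell types, and they were followed here through 8 groups of dog kidney epithelial cells. They were chosen by name, as every probe set that the array's annotation table gives one of these symbols alone, which makes 4 of the 15115 genes with a symbol of their own. The 4 genes have 13 probe sets. Of these, 5 reached a log2 level of 5 on at least 3 of the 29 arrays and were tested, 1 each for ICAM1, VCAM1 and C3 and 2 for SAA1.

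The cells were MDCK, an established line of canine kidney epithelium, named type II in the series title. They grew either on transwell filters, called 2D here, or in collagen, called 3D. In each culture 1 group was left untreated (control, 4 arrays in 2D and 4 in 3D), 1 received hepatocyte growth factor (HGF, 4 and 4), 1 received HGF with PD-98059 (4 and 3) and 1 received HGF with U0126 (3 and 3). PD-98059 and U0126 both block MEK, the kinase that activates ERK downstream of the HGF receptor MET, and neither was given without HGF in the groups used here. All groups are 1 cell line, and neither dose nor duration of any agent is stated in the labels. Nothing in the labels says whether the arrays of a group came from separate cultures, so p-values reflect only how these arrays spread, which could be technical variation.

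NF-kB factors are held in the cytoplasm by IkB proteins until a signal such as TNF, interleukin 1 or CD40 ligand leads the IKK kinases to mark IkB for destruction. The freed factors switch on inflammatory genes and also their own brakes, among them the IkB gene NFKBIA. ICAM1 and VCAM1 are immunoglobulin-type surface receptors to which leukocyte integrins bind, serum amyloid A is a secreted acute phase protein, and C3 is the central component of the complement cascade. Kidney tubule epithelium is known to make ICAM1, VCAM1 and C3 in inflammation.

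The arrays had medians between log2 3.06 and 3.26, and the small number of arrays limits precision throughout. Arrays of 1 group correlated at 0.987 or more, except in the 3D HGF group, where the lowest correlation was 0.964. Of the epithelial markers with a probe set, 6 of 8 were measurable (EPCAM, KRT8, KRT18, CDH16, OCLN and TJP1), while CDH1 and PAX8 stayed at or below 3.84 and 3.58. No endothelial marker (0 of 5) and no fibroblast marker (0 of 8) was measurable, and of the leukocyte markers 1 of 7 was, CD68, which reached 6.79 and whose only group mean above 5 was 5.77 in 2D HGF. The pan-leukocyte gene PTPRC lay between 2.73 and 2.94. An index of RNA quality, the log2 difference of 3′ control probe sets from 5′ ones (ACTB and GAPDH) or middle ones (EEF1A1), averaged over these 3 genes, had a mean of 4.565 ± 0.097 (SD) in 2D control, 3.694 ± 0.158 in 2D HGF, 5.309 ± 0.329 in 3D control and 4.866 ± 0.706 in 3D HGF, and its part in the results was not tested beyond a fit that holds it as a covariate. In whole-culture RNA, fewer expressing cells and less RNA per cell cannot be told apart.

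In untreated cells ICAM1 was higher in 3D than in 2D and C3 was lower, where 23.6% of all tested probe sets were higher and 28.7% lower. VCAM1 and SAA1 were also higher in untreated 3D cells, from background in 2D. VCAM1 passed the filter only through 3D control and SAA1 only through 3D groups. Their differences between cultures follow from that choice and support nothing. HGF lowered VCAM1, SAA1 and C3 in 3D, where 32.6% of all tested probe sets were lower, and ICAM1 by a small amount whose call was lost in 5 alternatives. In 2D it raised ICAM1 and lowered C3, while VCAM1 and SAA1 were at background there with or without HGF. With either MEK inhibitor beside HGF, SAA1 in 3D was back within the range of the control arrays or near it, VCAM1 stayed at background, ICAM1 was lower than with HGF alone in both cultures, and C3 stayed well below control. All levels and differences below are on the log2 scale, levels are not compared between probe sets, and a level under 5 is called background.

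**Figure D1:**
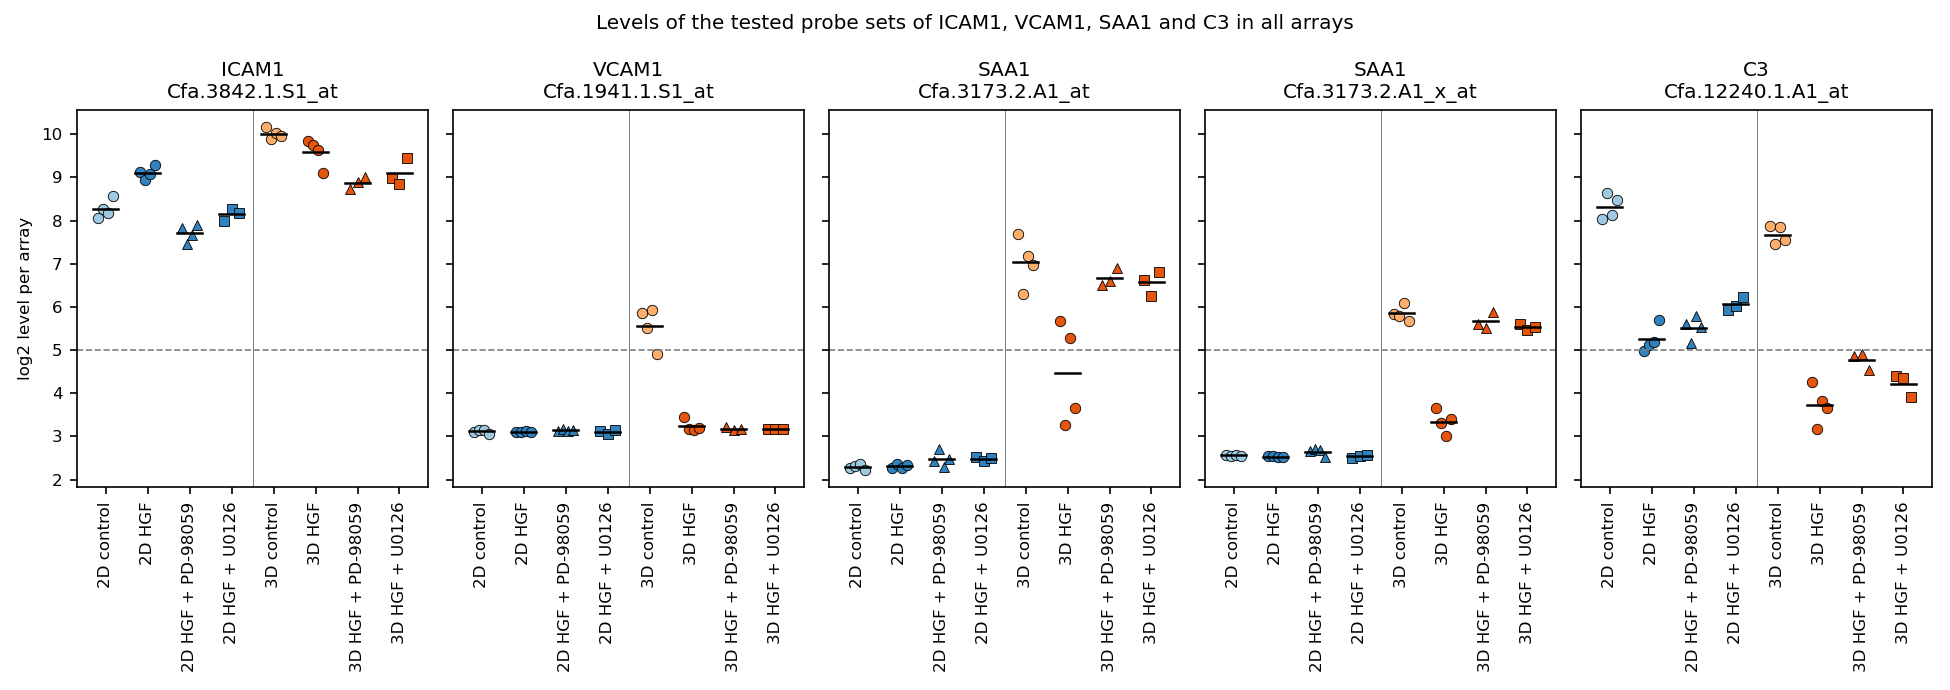
Log2 level (y axis) of the 5 tested probe sets of ICAM1, VCAM1, SAA1 and C3 in the 8 groups (x axis); each point is 1 array, each bar the group mean, and the dashed line marks log2 5, the level under which a value is called background. VCAM1 passes the line only in 3D control, on 3 of 4 arrays, SAA1 only in 3D groups, and C3 is highest in the untreated groups of both cultures.

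ICAM1, which binds the leukocyte integrins LFA-1 and Mac-1, was above background on all 29 arrays. Untreated 2D cells gave 8.05, 8.27, 8.17 and 8.58, and 2D cells with HGF gave 9.13, 8.94, 9.07 and 9.29. Untreated 3D cells gave 10.16, 9.89, 10.02 and 9.96, and 3D cells with HGF gave 9.85, 9.75, 9.63 and 9.11. The 2D groups thus lie apart with HGF on top, and the 3D groups lie apart by a narrow gap with HGF below, as 54.2% of all tested probe sets did in 2D and 51.8% in 3D, in either direction.

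HGF raised ICAM1 in 2D from 8.27 ± 0.23 to 9.11 ± 0.14 (SD, n = 4 each), a difference of 0.84 ± 0.15 (SE), or 1.79-fold, with limma adjusted p = 2.92e-05. In that comparison 55.4% of all tested probe sets passed in either direction and 26.3% were higher with HGF. The same gene fell in 3D from 10.01 ± 0.11 to 9.59 ± 0.33 (n = 4 each), by 0.42 on the log2 scale, a 1.34-fold difference with a 95% interval of -0.73 to -0.11 and adjusted p = 0.0165, where 62.1% of all tested probe sets passed, 32.6% of all being lower and 29.4% higher. This small fall rests on few arrays: it was -0.26 (adjusted p = 0.107) without 3D HGF replicate 4, -0.37 (0.0532) without 3D control replicate 1, and -0.26 (0.109) with the RNA-quality index as a covariate. The effect of HGF on ICAM1 was 1.26 lower in 3D than in 2D (-1.26 ± 0.21, adjusted p = 2.24e-05), a test that 48.3% of all tested probe sets passed.

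Without HGF, ICAM1 was 3.34-fold higher in 3D than in 2D (difference 1.74 ± 0.15, adjusted p = 4.14e-10), in a comparison that 52.3% of the probe sets passed, 23.6% of all being higher and 28.7% lower in 3D, with no overlap of arrays for 54.3%. With HGF in both cultures the 3D level was 1.39-fold higher (0.48 ± 0.15, adjusted p = 0.00702, 64.6% of all passed), the arrays of the groups overlapped (no overlap was seen for 53.5% of all tested probe sets), and the difference was 0.06 (adjusted p = 0.824) with the RNA-quality index as a covariate.

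The inhibitor arrays for ICAM1 were the lowest of their culture or close to it. In 2D, PD-98059 with HGF gave 7.84, 7.45, 7.67 and 7.90, and U0126 with HGF gave 8.0, 8.27 and 8.17. In 3D, PD-98059 with HGF gave 8.74, 8.89 and 9.02, and U0126 with HGF gave 8.99, 8.84 and 9.46. Every 2D inhibitor array lies below every 2D HGF array, as does every 3D PD-98059 array against 3D HGF, whereas 1 U0126 array in 3D overlaps the HGF group. Of all tested probe sets 49.6% (PD-98059) and 56.6% (U0126) had no overlap with HGF in 2D, and 36.5% and 42.6% in 3D, in either direction.

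Against HGF alone, PD-98059 lowered ICAM1 by 2.63-fold in 2D (-1.39 ± 0.15, adjusted p = 1.28e-08) and by 1.63-fold in 3D (-0.70 ± 0.16, adjusted p = 0.000919). In these comparisons 52.4% and 42.0% of all tested probe sets passed. U0126 lowered it by 1.95-fold in 2D (-0.96 ± 0.16, adjusted p = 1.62e-05, 50.1% of all passed) and by 1.40-fold in 3D (-0.49 ± 0.16, adjusted p = 0.0137, 49.3% of all passed). The 3D value with U0126 missed the threshold without 3D U0126 replicate 1 (-0.44, adjusted p = 0.0595) or replicate 2 (-0.36, 0.108), and in a fit on the compared groups alone (-0.49, 0.128).

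The inhibitor groups also lay below untreated cells for ICAM1 in 3 of the 4 comparisons. In 3D the differences from control were -1.12 ± 0.16 with PD-98059 (2.18-fold, adjusted p = 3.93e-06, 38.8% of all probe sets passed) and -0.91 ± 0.16 with U0126 (1.88-fold, adjusted p = 9.91e-05, 33.8% passed). In 2D PD-98059 gave -0.55 ± 0.15 (1.47-fold, adjusted p = 0.00733, 25.6% passed), and U0126 gave -0.12, with a 95% interval of -0.45 to 0.21 and adjusted p = 0.694 (17.0% passed). From highest to lowest the ICAM1 groups ran 3D control, 3D HGF, 2D HGF, 3D U0126, 3D PD-98059, 2D control, 2D U0126 and 2D PD-98059. Adjacent groups in this order overlapped from 3D HGF down to 3D PD-98059 and between 2D control and 2D U0126, and did not overlap at the other 3 steps.

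The second ICAM1 probe set stayed between 2.37 and 3.17 and was not tested. Its 2D HGF arrays, at 3.14, 2.59, 2.99 and 3.17, were above its 2D control arrays, at 2.45 to 2.47, all at background. A fit without the filter gave 0.51 ± 0.07 for HGF in 2D (adjusted p = 6.59e-06) and 0.11 ± 0.07 in 3D (adjusted p = 0.232). Between cultures it differed from the first probe set. In 3D against 2D it gave 0.05 ± 0.07 in untreated cells (adjusted p = 0.681) and -0.35 ± 0.07 with HGF (0.000602), where the first gave 1.74 and 0.48.

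VCAM1, the receptor for the integrin VLA-4, had a mean above background in a single group. Untreated 3D cells gave 5.85, 5.51, 5.92 and 4.91, and 3D cells with HGF gave 3.46, 3.17, 3.16 and 3.19. With HGF and PD-98059 the 3D arrays read 3.22, 3.15 and 3.17, with HGF and U0126 they read 3.17, 3.17 and 3.18, and all 2D arrays lay between 3.05 and 3.18. The 3D control arrays stand above all the others, and no other group left the background. Of all tested probe sets 51.8% had no overlap between 3D control and 3D HGF, and 54.3% between 3D and 2D control. Because VCAM1 passed the filter only through 3D control, its differences from that group had to be large, and each fold is a distance from background.

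In 3D, VCAM1 fell with HGF from 5.55 ± 0.46 to 3.24 ± 0.14 (n = 4 each), by 2.31 ± 0.14, or 4.94-fold (adjusted p = 2.60e-13). It was 5.39-fold higher in untreated 3D than in untreated 2D cells (2.43 ± 0.14, adjusted p = 2.76e-13). Against HGF alone in 3D neither inhibitor comparison passed: the differences were -0.06 with PD-98059 (adjusted p = 0.800) and -0.07 with U0126 (adjusted p = 0.741), and against control they were -2.37 ± 0.15 and -2.38 ± 0.15. In 2D the HGF difference was 0.00, with a 95% interval of -0.30 to 0.29 (adjusted p = 0.984), but a gene at background on both sides cannot show a fall. The difference of the HGF effect between cultures was -2.30 ± 0.20 (adjusted p = 8.01e-10). The second VCAM1 probe set lay between 2.90 and 3.10 on every array, 3D control included.

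SAA1, the acute phase form of serum amyloid A made in liver and in epithelia under inflammatory cytokines, had 2 tested probe sets, and both were above background in 3D only. On the first (suffix _at) untreated 3D cells gave 7.69, 6.31, 7.17 and 6.98, and 3D cells with HGF gave 5.68, 3.26, 5.27 and 3.67. PD-98059 with HGF gave 6.51, 6.61 and 6.91 and U0126 with HGF gave 6.63, 6.26 and 6.82. In 2D the 15 arrays all lay between 2.23 and 2.70. The 3D HGF arrays are all below the other 3D arrays but spread widely, with replicates 1 and 3 above background and replicates 2 and 4 within it. Of all tested probe sets 51.8% had no overlap between 3D HGF and control, 36.5% between HGF and PD-98059 and 42.6% between HGF and U0126.

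On the second SAA1 probe set (suffix _x_at) the 3D control arrays read 5.83, 5.80, 6.09 and 5.68 and the 3D HGF arrays 3.66, 3.30, 3.01 and 3.41. PD-98059 with HGF gave 5.61, 5.52 and 5.89 and U0126 with HGF gave 5.61, 5.46 and 5.53, while the 2D arrays lay between 2.50 and 2.72. Here all 4 HGF arrays are at background and close together, so both probe sets order the 3D groups alike but differ in the spread with HGF. Their names place both on the same transcript cluster, so they are not independent measurements. Serum amyloid A genes are close copies of each other, and a part of other copies in these signals was not tested.

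HGF lowered SAA1 in 3D by 5.91-fold on the first probe set, from 7.03 ± 0.57 to 4.47 ± 1.18 (difference -2.56 ± 0.34, adjusted p = 3.60e-07). On the second it was 5.67-fold lower (5.85 ± 0.17 to 3.35 ± 0.27, difference -2.50 ± 0.12, adjusted p = 1.49e-15). Both HGF means are below 5, so these folds rest on a background level. Untreated 3D cells exceeded untreated 2D cells by 26.8-fold on the first (4.74 ± 0.34, adjusted p = 1.59e-11) and by 9.78-fold on the second (3.29 ± 0.12, adjusted p = 2.67e-17), again from background. Both probe sets passed the filter only through 3D groups, so their differences of 3D from 2D had to be large and support nothing. The second passed it without any 3D HGF array, so its fall with HGF follows in part from the filter too. In 2D neither passed with HGF, with differences of 0.02 ± 0.34 (adjusted p = 0.971) and -0.03 ± 0.12 (adjusted p = 0.873) at background.

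SAA1 was higher with either inhibitor than with HGF alone in 3D, where 26.6% (PD-98059) and 25.4% (U0126) of all tested probe sets were higher. The folds start from HGF means at background, 4.47 on the first probe set and 3.35 on the second. The second reached log2 5 only in 3D control and the 3D inhibitor groups, on 0 of the HGF arrays. Its differences from HGF thus follow in part from the filter and support nothing. PD-98059 gave 4.61-fold on the first probe set (2.21 ± 0.37, adjusted p = 2.31e-05) and 5.02-fold on the second (2.33 ± 0.13, adjusted p = 1.09e-13). U0126 gave 4.28-fold (2.10 ± 0.37, adjusted p = 3.32e-05) and 4.56-fold (2.19 ± 0.13, adjusted p = 2.06e-13). In 2D the inhibitors' differences from HGF for SAA1 were 0.16 and 0.12 with PD-98059 and 0.17 and 0.00 with U0126, none of which passed. These comparisons share the HGF arrays with the HGF comparison, so a low HGF group enters both.

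Set against control in place of HGF, SAA1 in 3D with PD-98059 differed by -0.36 (95% interval -1.12 to 0.40, adjusted p = 0.492) on the first probe set and -0.18 (-0.44 to 0.09, adjusted p = 0.306) on the second. With U0126 the differences were -0.47 (-1.22 to 0.29, adjusted p = 0.356) and -0.32 (-0.58 to -0.05, adjusted p = 0.0593). The last of these lies at the threshold and passed without 3D control replicate 4 (-0.37, adjusted p = 0.0391). The intervals still allow a level about as much as 1.12 or 1.22 below control on the first probe set. With HGF the first probe set was 4.47-fold higher in 3D than in 2D (2.16 ± 0.34, adjusted p = 4.50e-06). That difference was 1.11 (adjusted p = 0.0333) with the RNA-quality index as a covariate, and 3D replicates 2 and 4 and all 2D arrays were at background. The second was 1.76-fold higher (0.81 ± 0.12, adjusted p = 1.40e-06), from 2.53 to 3.35. On both probe sets the means of both groups were at background. Both passed the filter only through 3D groups, so these differences support nothing.

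The remaining SAA1 probe set stayed between 2.49 and 2.80. A probe set shared by SAA1 and another serum amyloid locus, left out because it has more than 1 symbol, lay between 4.32 and 5.18 in all groups.

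C3, whose cleavage starts the effector steps of complement, was high in untreated cells of both cultures. In 2D the control arrays read 8.04, 8.65, 8.14 and 8.48 and the HGF arrays 4.98, 5.13, 5.19 and 5.69. In 3D the control arrays read 7.87, 7.45, 7.85 and 7.54 and the HGF arrays 4.26, 3.18, 3.82 and 3.67. No HGF array comes near a control array in either culture, and in 3D all 4 HGF arrays are at background. Of all tested probe sets 54.2% in 2D and 51.8% in 3D had no overlap between HGF and control, in either direction.

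HGF lowered C3 by 8.47-fold in 2D, from 8.33 ± 0.29 to 5.25 ± 0.31 (difference -3.08 ± 0.20, adjusted p = 7.74e-13). In 3D it fell from 7.68 ± 0.21 to 3.73 ± 0.44, a difference of -3.95 ± 0.20, or 15.4-fold down to background (adjusted p = 4.65e-15). Of all tested probe sets 29.2% were lower with HGF in 2D and 32.6% in 3D. The effect of HGF on C3 was larger in 3D by 0.87 on the log2 scale (-0.87 ± 0.28, adjusted p = 0.0129), with the 3D HGF level at background. Of the 4 genes only C3 was lower in untreated 3D than in untreated 2D cells (-0.65 ± 0.20, 1.57-fold, adjusted p = 0.00751), and with HGF the difference was -1.52 ± 0.20 (adjusted p = 2.54e-07), with 3D at background.

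With the inhibitors C3 stayed far below control. In 2D the PD-98059 arrays read 5.60, 5.17, 5.79 and 5.53 and the U0126 arrays 5.93, 6.03 and 6.24. In 3D the PD-98059 arrays read 4.87, 4.91 and 4.54 and the U0126 arrays 4.40, 4.36 and 3.91. The 2D U0126 arrays all lie above the 2D HGF arrays and the 3D PD-98059 arrays all lie above the 3D HGF arrays, while the other inhibitor groups overlap HGF. No overlap with HGF was seen for 56.6% of all tested probe sets with U0126 in 2D and for 36.5% with PD-98059 in 3D.

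Against HGF alone, C3 rose with U0126 in 2D by 1.76-fold (0.82 ± 0.21, adjusted p = 0.00231). In 3D the difference with PD-98059 was 1.05 ± 0.21 (adjusted p = 0.000276), but both means, 4.78 and 3.73, are at background, so no fold is read from it. PD-98059 in 2D gave 0.27 ± 0.20 (adjusted p = 0.267) and U0126 in 3D gave 0.49 ± 0.21 (adjusted p = 0.0592), again between background levels. The last of these passed without 3D HGF replicate 1 (0.67, adjusted p = 0.00945) or without 3D U0126 replicate 3 (0.65, adjusted p = 0.0281). Against control, C3 was still 7.01-fold lower with PD-98059 and 4.80-fold lower with U0126 in 2D (-2.81 ± 0.20 and -2.26 ± 0.21), and in 3D the differences were -2.90 ± 0.21 and -3.45 ± 0.21, distances to background means of 4.78 and 4.22. The order of C3 levels was 2D control, 3D control, 2D U0126, 2D PD-98059, 2D HGF, 3D PD-98059, 3D U0126 and 3D HGF. Adjacent groups overlapped only at 2D PD-98059 with 2D HGF and at 3D U0126 with 3D HGF.

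Among the 5 untested C3 probe sets, which ranged from 2.02 to 4.78, 1 was also lower with HGF in both cultures, near background. It read 4.57, 4.78, 3.25 and 4.63 in 2D control, 4.01, 3.51, 3.48 and 4.13 in 3D control and 2.90 to 3.14 in every other group. Fitted without the filter it was lower with HGF by 1.36 in 2D (-1.36 ± 0.20, adjusted p = 8.82e-06) and by 0.76 in 3D (-0.76 ± 0.20, adjusted p = 0.00510). Unlike the tested probe set, it did not fall more in 3D (difference of the effect 0.60 ± 0.29, adjusted p = 0.156). With HGF its 3D and 2D levels differed by 0.08 (adjusted p = 0.760), and neither inhibitor raised it.

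**Figure D2:**
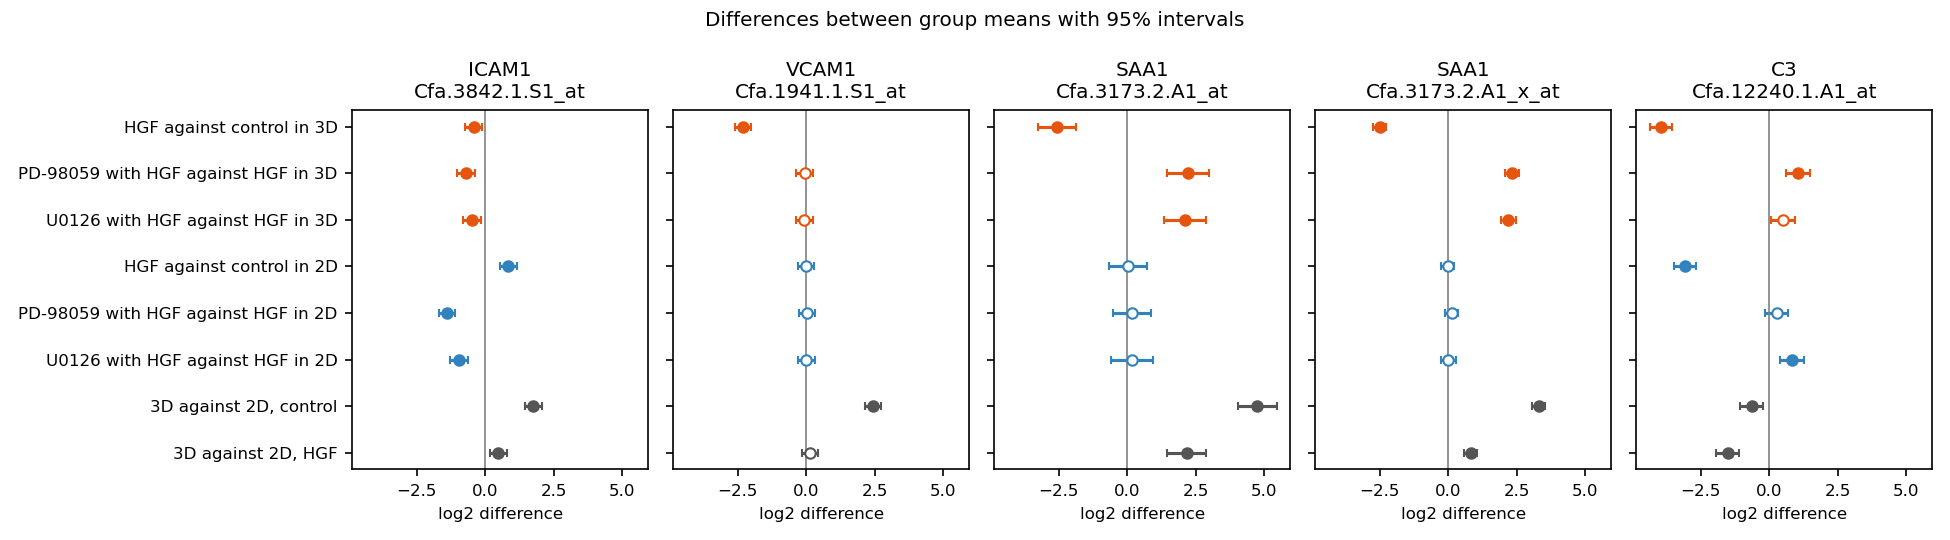
Log2 difference (x axis) with its 95% interval for each tested probe set of ICAM1, VCAM1, SAA1 and C3 in the main comparisons; filled points passed an adjusted p of 0.05. ICAM1 lies to the right of 0 for HGF in 2D (0.84) and to the left in 3D (-0.42), and both SAA1 probe sets lie to the right for both inhibitors in 3D.

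PD-98059 and U0126 are chemically different MEK inhibitors and were compared with each other in both cultures, 5 probe sets in each, with p-values adjusted over all tested probe sets. None of the 10 differences passed. In 3D, where 11.8% of all tested probe sets passed, U0126 minus PD-98059 was 0.21 for ICAM1 (95% interval -0.14 to 0.57, adjusted p = 0.479), -0.11 (-0.92 to 0.70, 0.912) and -0.14 (-0.42 to 0.14, 0.575) for the SAA1 probe sets, -0.01 (-0.35 to 0.33, 0.983) for VCAM1 and -0.55 (-1.02 to -0.08, 0.124) for C3. In 2D, where 1.62% of all passed, it was 0.43 for ICAM1 (0.10 to 0.76, adjusted p = 0.240) and 0.55 for C3 (0.10 to 0.99, 0.282), and VCAM1 and SAA1 were at background. The arrays of both inhibitors did not overlap for C3 in either culture or for ICAM1 in 2D, as was so for 31.5% of all tested probe sets in 3D and 10.7% in 2D. These intervals do not show that the compounds act alike, and whether their doses matched is not stated in the labels.

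Whether an inhibitor acted differently in the 2 cultures was tested as the difference of its effect, 3D minus 2D. For PD-98059, a test that 34.2% of all probe sets passed, the difference was 2.04 ± 0.50 (adjusted p = 0.00228) and 2.21 ± 0.17 (3.18e-10) for SAA1, 0.69 ± 0.22 (0.0160) for ICAM1, and 0.77 ± 0.29 (0.0421) for C3. The ICAM1 value missed the threshold without 3D PD-98059 replicate 3 (0.62, adjusted p = 0.0512). The C3 value missed it without 3D HGF replicate 2 (0.59) or 4 (0.75), 2D HGF replicate 3 (0.79) or 4 (0.62), 3D PD-98059 replicate 1 (0.72) or 2 (0.70), or 2D PD-98059 replicate 2 (0.65) or 4 (0.77). It was also missed without the filter (adjusted p = 0.0960), after median centring (0.0768) and on the compared groups alone (0.0905). For U0126, where 36.5% passed, SAA1 gave 1.93 ± 0.52 (adjusted p = 0.00486) and 2.18 ± 0.18 (7.59e-10), and ICAM1 gave 0.47 ± 0.23 (0.110) and C3 -0.33 ± 0.30 (0.442). VCAM1 gave -0.09 (adjusted p = 0.793) and -0.06 (0.861). The SAA1 differences set a 3D change against a 2D level that was at background throughout. They do not show that an inhibitor acted differently between cultures.

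**Figure D3:**
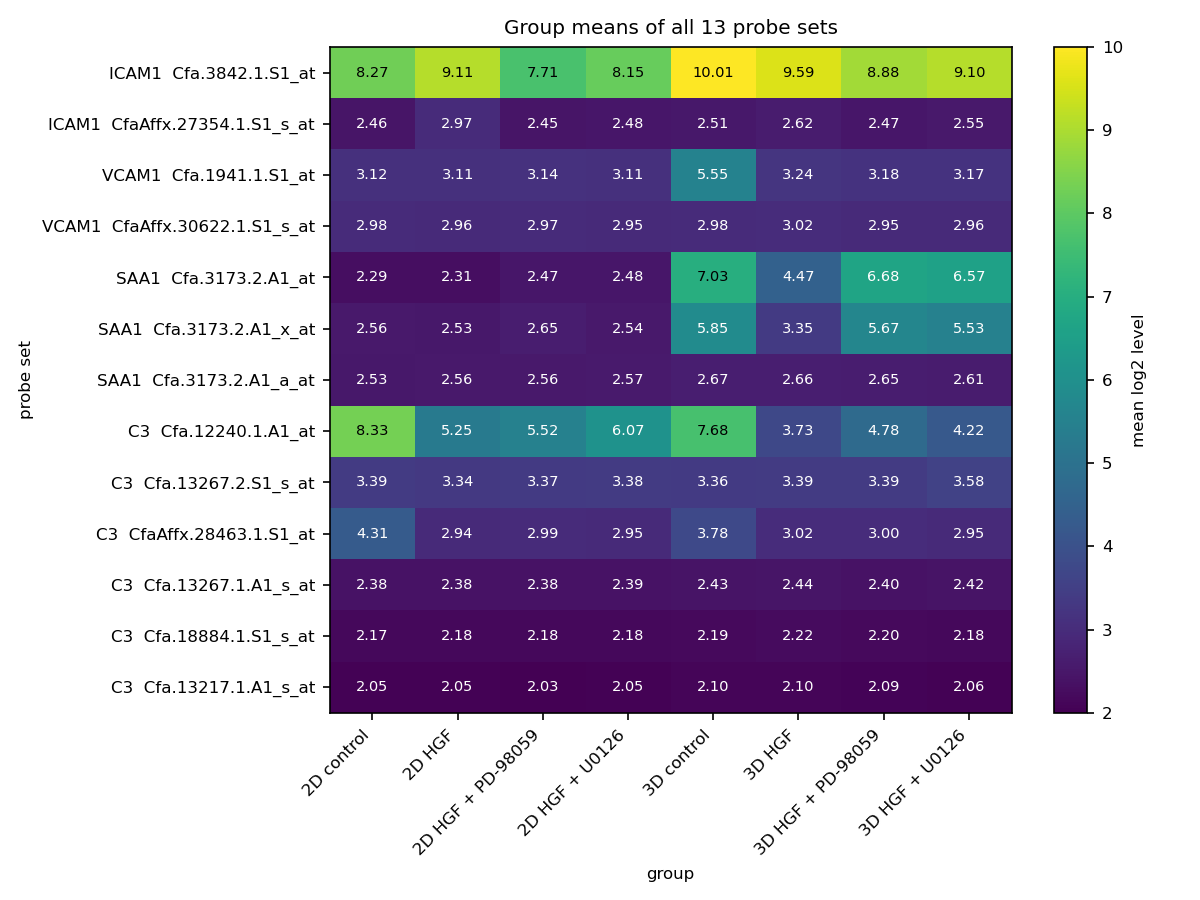
Heat map of the group mean log2 level of all 13 probe sets of ICAM1, VCAM1, SAA1 and C3 (rows) in the 8 groups (columns), with the value printed in each cell. The 5 tested probe sets carry the pattern, and the other 8 stay at background, at 4.78 or less on every array.

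Genes of the NF-kB pathway itself were read from lists, with 1 probe set per gene, the tested one with the highest mean. Of 19 listed NF-kB factors, inhibitors and kinases on the array 8 were tested. In 3D HGF lowered 6 of them and raised 1, with a median difference of -0.55 against 0.00 over all tested probe sets, of which 32.6% were lower and 29.4% higher. In 2D it raised 2 and lowered 0 (median 0.13 against -0.03, with 26.3% of all higher and 29.2% lower). In untreated 3D against 2D cells 5 were higher and 0 lower (median 0.45 against -0.03, with 23.6% of all higher and 28.7% lower).

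BIRC3, an inhibitor of apoptosis that NF-kB is known to induce, moved most of these. It fell with HGF in 3D from 12.48 to 9.27 (-3.20 ± 0.15, adjusted p = 9.07e-16), rose with HGF in 2D by 1.49 ± 0.15 (adjusted p = 3.09e-09), and was 38.0-fold higher in untreated 3D than 2D cells (5.25 ± 0.15, adjusted p = 1.62e-19). These values are from its highest probe set. Of its 3 tested probe sets all 3 fell with HGF in 3D, by -3.20 to -1.30. Only 1 passed with HGF in 2D (range 0.08 to 1.49), and all 3 were higher in untreated 3D cells (2.08 to 5.25). NFKBIA, the IkB-alpha brake, fell with HGF in 3D from 11.23 to 8.85 (-2.39 ± 0.09, adjusted p = 3.69e-17) and was 2.12 ± 0.09 higher in untreated 3D than 2D cells, while in 2D with HGF it differed by 0.15 ± 0.09 (adjusted p = 0.173). CYLD, a deubiquitinase that restrains the pathway, fell in 3D (-1.28 ± 0.20, to a background mean of 4.08) and rose in 2D (0.72 ± 0.20, adjusted p = 0.00285, and 0.45 with adjusted p = 0.127 when the RNA-quality index was a covariate). CHUK, the kinase IKK-alpha, was the 1 gene that rose with HGF in 3D (0.54 ± 0.13, adjusted p = 0.00112).

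NFKB1, the p105 precursor of the p50 subunit, did not pass on its highest probe set, with 0.02 (adjusted p = 0.910) for HGF in 3D and 0.11 (adjusted p = 0.469) in 2D. Of its 3 tested probe sets 2 were lower with HGF in 3D, down to -1.43, so the probe sets of NFKB1 disagree. The other subunit genes were at background on every array, with highest levels of 3.62 for RELA, 4.38 for RELB, 4.17 for REL and 4.10 for NFKB2, and so was the feedback gene TNFAIP3 at 1.92. Here and below, a reading at background does not show that a gene is silent. The second ICAM1 probe set stayed at or below 3.17 while the first was above background on every array.

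With PD-98059 and with U0126, 5 of the 8 NF-kB pathway genes were higher than with HGF alone in 3D and 0 lower (medians 0.60 and 0.54, against 0.05 and 0.00 over all, of which 26.6% and 25.4% were higher). BIRC3 was higher by 1.79 ± 0.16 and 2.35 ± 0.16 and NFKBIA by 1.33 ± 0.10 and 2.02 ± 0.10. In 2D BIRC3 was lower with both (-1.55 ± 0.15 and -0.67 ± 0.16).

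Signals and receptors that act upstream were mostly at background. TNF, IL1A, IL1B, IL1R1 and IL6 reached no more than 2.50, 2.29, 4.64, 3.22 and 2.40. Of 22 listed ligands, receptors and adaptors 7 were tested, and with HGF in 3D 1 rose and 2 fell (median 0.19), which is 3 of 7 where 62.1% of all tested probe sets passed. CD40, a receptor of the TNF family, fell with HGF in 3D (-1.78 ± 0.14, adjusted p = 3.75e-11), rose in 2D (0.53 ± 0.14, adjusted p = 0.00230) and was 6.98-fold higher in untreated 3D than 2D cells (2.80 ± 0.14). The adaptor TRAF2 was 0.85 ± 0.14 higher in untreated 3D cells, and so was the kinase gene IKBKB, by 0.70 ± 0.17.

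Few other acute phase genes could be read. Of 13 on the array 3 were tested, and 1 passed in each of the HGF comparisons, where 62.1% of all tested probe sets passed in 3D and 55.4% in 2D. This was the metallothionein MT2A, at -0.44 ± 0.13 in 3D (adjusted p = 0.00348) and 1.12 ± 0.13 in 2D (adjusted p = 2.58e-08). Without 3D HGF replicates 1 and 4 the 3D value was -0.28 (adjusted p = 0.0786). It was 1.55 ± 0.13 higher in untreated 3D than 2D cells. LCN2, the lipocalin that kidney epithelium is known to release on injury, stayed at or below 2.59. In the interleukin 6 and STAT3 arm 4 of 13 genes were tested, and STAT3 gave -0.65 (adjusted p = 0.0790) with HGF in 3D and -0.68 (adjusted p = 0.0742) in 2D. The 3D value passed without 3D HGF replicate 1 (-0.91, adjusted p = 0.0159), and the 2D value passed on the compared groups alone (adjusted p = 0.00361) and with array weights (0.0282). Of the 3 tested STAT3 probe sets 2 were lower with HGF in 2D, down to -0.91, and 0 passed in 3D. JAK1, a kinase of the same arm, fell with HGF in 3D on its highest probe set (-0.43 ± 0.09), while its 3 tested probe sets ranged from -0.55 to 1.37. The LIF receptor gene LIFR rose with HGF in 2D (1.33 ± 0.14, adjusted p = 9.04e-09).

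Other complement genes fell with HGF beside C3. Of 18 on the array 7 were tested, and all 7 fell in 3D, with a median of -1.95 against 0.00 over all tested probe sets, where 32.6% of all were lower. In 2D 5 fell and 1 rose (median -1.24 against -0.03, 29.2% of all lower). CFI, the protease that inactivates C3b, fell by 2.79 ± 0.14 in 3D and 2.03 ± 0.14 in 2D (-2.79, adjusted p = 8.82e-15, and -2.03, adjusted p = 5.63e-12). C2, a subunit of the classical C3 convertase, gave -2.61 ± 0.10 and -1.41 ± 0.10 on its highest probe set. In 2D its 3 tested probe sets ranged from -2.81 to 0.42, with 2 called lower and 1 higher. The C1 inhibitor gene SERPING1 gave -2.04 ± 0.23 and -1.79 ± 0.23, and the C1 proteases gave -1.95 ± 0.12 and -0.83 ± 0.12 (C1R) and -1.53 ± 0.11 and -1.24 ± 0.11 (C1S). The 7 thus hold both activating components and regulators.

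CD59, which blocks the membrane attack complex on the cell surface, was the complement gene that moved in opposite directions, falling in 3D (-1.20 ± 0.09, adjusted p = 7.00e-12) and rising in 2D (0.56 ± 0.09, adjusted p = 5.50e-06). Between untreated cultures the list was even, with 2 higher and 2 lower in 3D (median 0.00), where 23.6% of all tested probe sets were higher and 28.7% lower. SERPING1 was 1.85 lower in 3D (-1.85 ± 0.23) and CFI 0.68 lower (-0.68 ± 0.14). C1S was higher by 0.26 ± 0.11 (adjusted p = 0.0491), and missed the threshold, at 0.20 to 0.29, without any 1 of the 4 3D control arrays or of 2D control replicates 2, 3 and 4. Both C1S and C2 have tested probe sets with calls in opposite directions in 1 or more comparisons.

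With the inhibitors in 3D, 4 (PD-98059) and 5 (U0126) of the 7 complement genes were higher than with HGF alone, and with U0126 1 was lower. Of all tested probe sets 26.6% and 25.4% were higher in these 3D comparisons. In 2D 3 and 5 were higher and 1 lower with each, where 27.6% and 25.8% of all tested probe sets were higher. C2 was higher with U0126 (1.14 in 3D, 1.05 in 2D) and C1S with both compounds (0.88 and 0.76 in 3D, 1.12 and 1.07 in 2D). CFI with PD-98059 gave -0.10 in 3D (adjusted p = 0.662).

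**Figure D4:**
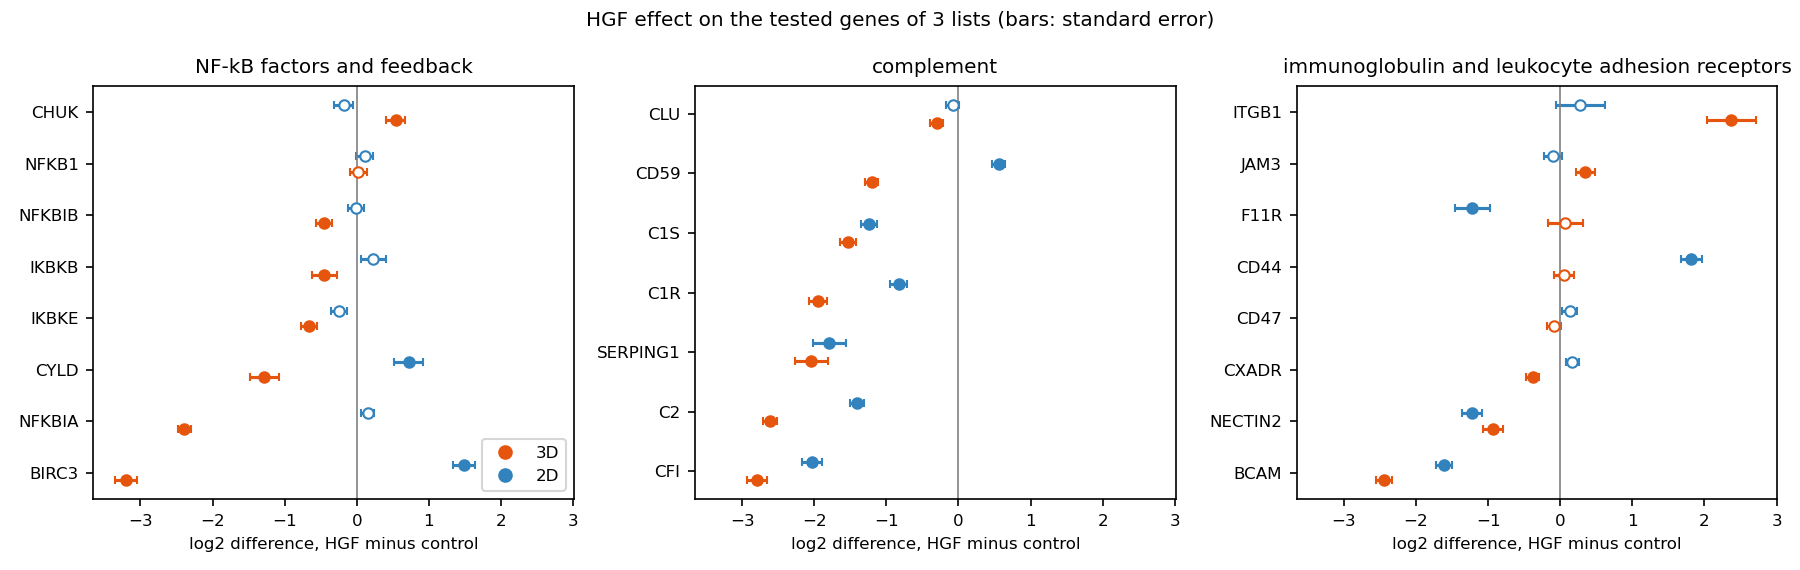
Log2 difference of HGF minus control (x axis) with its SE for the tested genes of 3 lists, NF-kB factors, complement and adhesion receptors (y axis), in 3D (orange) and 2D (blue); filled points passed an adjusted p of 0.05. BIRC3 and CD59 lie on opposite sides of 0 in the 2 cultures, while CFI, C2, SERPING1, C1R and C1S lie to the left in both.

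Of 27 other immunoglobulin-type and leukocyte adhesion genes on the array 8 were tested, and HGF in 3D raised 2 and lowered 3 (median -0.02), a share near the 62.1% of all tested probe sets that passed. The laminin receptor BCAM fell in both cultures (-2.45 ± 0.11 in 3D, -1.61 ± 0.11 in 2D) and was higher with both inhibitors. NECTIN2, a junctional adhesion protein, also fell in both (-0.93 ± 0.14 and -1.22 ± 0.14). CD44, the hyaluronan receptor, rose with HGF in 2D (1.82 ± 0.14, adjusted p = 2.92e-11), as ICAM1 did there. F11R, which encodes junctional adhesion molecule A, fell with HGF in 2D to background (-1.22 ± 0.24) and was lower in untreated 3D than 2D cells (-1.83 ± 0.24). ITGB1, the beta subunit of VLA-4 and of many matrix integrins, rose in 3D (2.37 ± 0.34) on its highest probe set but gave 0.08 on its other one. Of the tested proteases that can shed adhesion receptors, MMP9 was 6.17 ± 0.24 higher in untreated 3D than 2D cells, from background, and fell with HGF in 3D (-2.20 ± 0.24, adjusted p = 1.69e-08), and MMP2 rose there (1.03 ± 0.23). ADAM10 changed by -0.28 ± 0.09 with HGF in 3D, and by -0.10 (adjusted p = 0.379) without 3D HGF replicates 1 and 4.

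The genes most like each of the 4 were found by Pearson correlation over the 8 group means, as a description. For ICAM1 they were CDC42EP3 (0.985), PAK3 (0.983) and PLK2 (0.981). PLK2, a stress-induced polo-like kinase, ran from 6.65 in 2D control to 9.06 with HGF and 5.19 with PD-98059, and from 10.06 in 3D control to 9.89 with HGF and 7.83 with PD-98059.

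VCAM1 was most like IL4I1 (0.996), a second BIRC3 probe set (0.993) and PI3 (0.992), each above background in 3D control and at background in all other groups. SAA1 was most like the chemokine gene CCL2 (0.996) and the smooth muscle actin and transgelin genes ACTA2 (0.994) and TAGLN (0.988) on its first probe set, and like ACTA2 (0.996), TAGLN (0.991) and the chemokine gene CCL7 (0.990) on the second. CCL2 read 13.7 in 3D control, 7.95 with HGF, 12.75 with PD-98059 and 13.35 with U0126, against 3.12 to 4.61 in 2D.

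C3 was most like SF3A1 (0.988), ZNF326 (0.975) and GDF9 (0.971). These moved over a much narrower range: SF3A1, a splicing factor, lay between 11.51 and 12.14. The 8 points of each correlation share their arrays and their 2 cultures, so a gene that separates 1 or 2 groups from the rest can reach a high value.

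**Figure D5:**
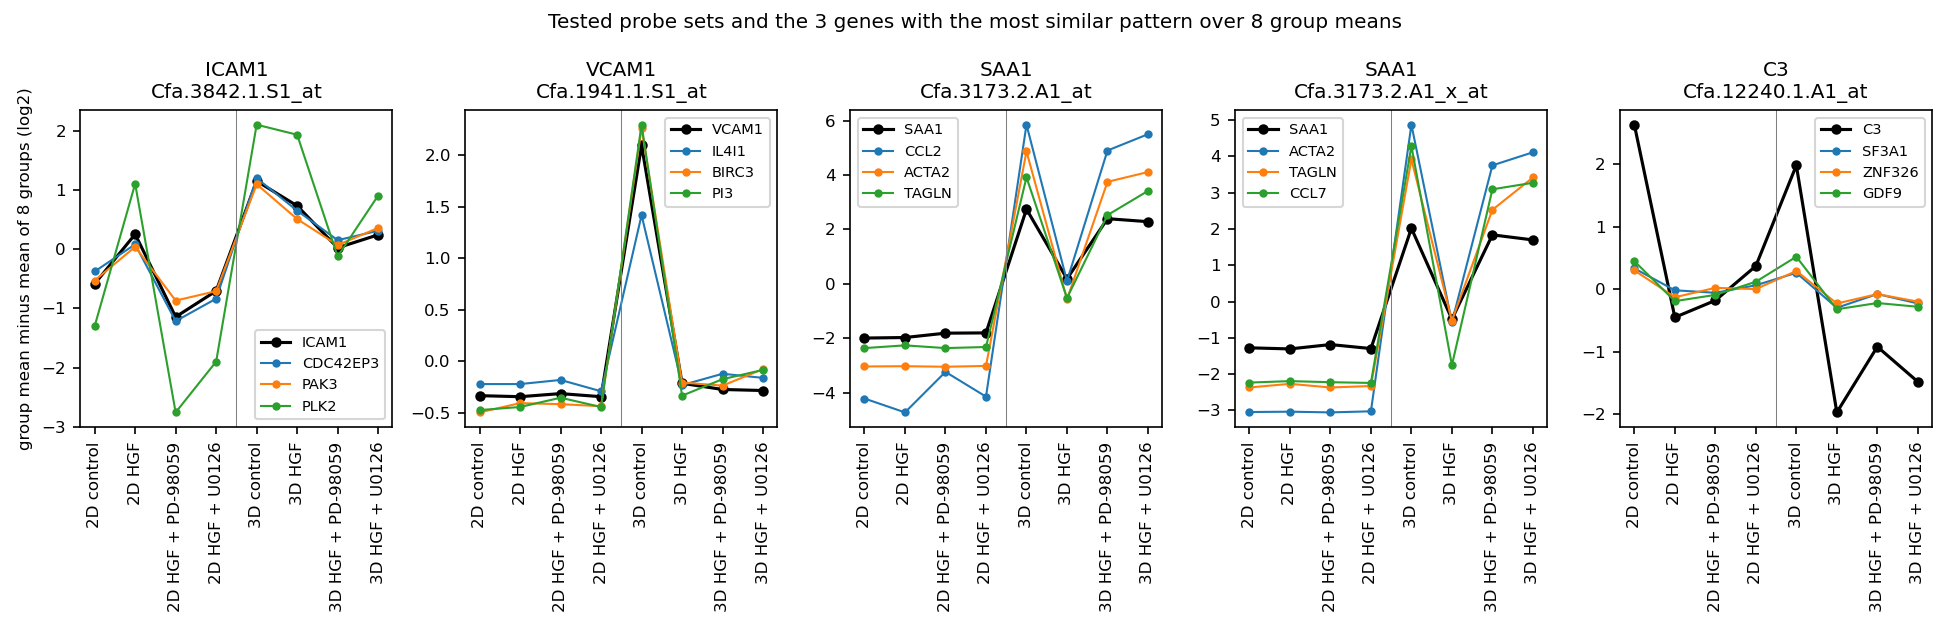
Group mean log2 level minus the mean of the 8 groups (y axis) over the 8 groups (x axis) for each tested probe set of ICAM1, VCAM1, SAA1 and C3 and the 3 genes most like it; each line is 1 probe set. The lines of CCL2 and ACTA2 follow SAA1 with a wider range, and those of SF3A1, ZNF326 and GDF9 follow C3 with a narrower one.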

How the data were processed

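Total RNA (Qiagen RNeasy) was reverse transcribed, amplified by in vitro transcription with biotinylated nucleotides and hybridised to Affymetrix canine arrays, per the labels. The authors deposited 1 log2 level for each probe set and array. Per the submitters' processing notes the tools were GCRMA, MAS5, Partek 6.6 and Affymetrix Expression Console 1.1, with no role or order given. The values were used as deposited. Of 43035 probe sets, 111 are controls, and 16571 of the rest reached log2 5 on at least 3 of 29 arrays and were tested. The platform's annotation gives 29264 probe sets 1 symbol, 439 several and 13231 none, and 27690 of the first matched RefSeq through the gene identifier. Without a genome of a named build, no positions or sequences are given, and promoter motifs were not analysed here.

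Tests used limma 3.58.1 under R 4.3.3 (lmFit on 8 group means over all arrays, eBayes with trend, two-sided), adjusted by Benjamini-Hochberg over 16571 probe sets within each of 17 comparisons, threshold 0.05. The scripts were checked on simulated data. The genes ICAM1, VCAM1, SAA1 and C3, the lists and the tests were chosen with earlier results of these data known. Named by rule were these 4 genes, up to 3 genes of each list with the largest change in each direction that passed without overlap between arrays (HGF in each culture, and 3D against 2D control), a set of fixed pathway genes, and the 3 genes with the most similar group means. Values of those genes in other comparisons, and C1R, were added after their values were seen. Of the 29 list genes named by rule, 17 have several tested probe sets, and 3 of these have calls in opposite directions (JAK1, C2 and C1S). Replicate numbers showed no pairing over all groups together. Over 94 same-numbered pairs the deviations from the group means correlated at a median of -0.03 (-0.43 to 0.60). Over 273 pairs of different number the median was 0.00 (-0.54 to 0.57). A pairing within some groups alone was not tested. Alternatives were other filters, variance and array weights, scalings, a replicate block, the RNA-quality index as covariate, and arrays left out.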

Additional observations from a re-analysis of the deposited data

Results flagged for a closer look

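The effect of HGF differed between 3D and 2D, by the test of the difference itself, which 48.3% of all tested probe sets passed, by -1.26 for ICAM1 and -0.87 for C3 (log2, 3D minus 2D). It was -2.30 for VCAM1 and -2.58 and -2.48 for the SAA1 probe sets, which were at background in 2D and passed the filter only through 3D groups, so that their differences follow from that choice and support nothing.

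The effect of PD-98059 beside HGF differed between cultures by 0.69 for ICAM1, where 34.2% of all tested probe sets passed. For SAA1 the differences were 2.04 and 2.21 with PD-98059 and 1.93 and 2.18 with U0126, where 36.5% passed with U0126. The SAA1 probe sets were at background in all transwell groups and passed the filter only through collagen groups. Their differences between cultures thus follow from that choice and support nothing. For C3 the PD-98059 difference was 0.77 at an adjusted p of 0.0421, and this call was lost in 11 alternatives, with limma adjusted p up to 0.103.

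VCAM1 on 3D HGF replicate 1, at 3.46, stood apart from the other arrays of its group, which lay between 3.16 and 3.19. All 4 values are at background, and chance alone sets apart an array in this way in about 5% of groups.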

How the results depend on the processing

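Of 85 results for the 4 genes (5 probe sets in 17 comparisons), 77 kept their side of the threshold under every alternative that could be fitted and 8 changed side. A reversal of direction was counted only where the result passed in the main fit or the alternative, and there were 0. Direction was not followed for results that passed in neither. The stricter filter (log2 6) drops some of these probe sets and gives them no value. The replicate block changed 0 of the 85 and left the ICAM1 difference for HGF in 3D at -0.42 (adjusted p = 0.0221). Among list genes, STAT3 passed under the block with HGF in 3D (-0.65, adjusted p = 0.0432) and 2D (-0.68, 0.0398). ICAM1 with HGF in 3D was -0.32 (adjusted p = 0.0617) after median centring, -0.26 (0.109) with the RNA-quality index, -0.32 (0.0913) without 3D HGF replicates 1 and 4, and -0.51 to -0.26 with single arrays left out (adjusted p from 0.00628 to 0.109 over its alternatives). ICAM1 in 3D against 2D with HGF was 0.06 (adjusted p = 0.824) with the index. ICAM1 with U0126 in 3D was -0.49 (adjusted p = 0.128) on the compared groups alone and -0.67 to -0.36 with arrays left out. The difference of the PD-98059 effect for ICAM1 ran from 0.53 to 0.78 with arrays left out, and that of U0126 was 0.62 (adjusted p = 0.0184) with the index.

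On the second SAA1 probe set, U0126 against control in 3D was -0.32 without trend (adjusted p = 0.0319) and without 3D HGF replicates 1 and 4 (0.0308), -0.35 (0.0285) after quantile normalization, -0.29 (0.0254) with array weights, and -0.37 to -0.24 with arrays left out. C3 with U0126 in 3D was 0.62 (adjusted p = 0.0150) with array weights, 0.72 (0.0135) without 3D HGF replicates 1 and 4, and 0.31 to 0.67 with arrays left out. The difference of the PD-98059 effect for C3 was 0.77 (adjusted p = 0.0960) without the filter, 0.69 (0.0768) after median centring, 0.77 (0.0905) on the compared groups alone, and 0.59 to 0.95 with arrays left out. It missed the threshold in 8 of the fits that leave out 1 array. The cause was not tested.

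Counts of probe sets passing moved by more than 1.5 times for 3D against 2D with HGF (23761 without the filter, main 10703, more probe sets being tested), PD-98059 in 3D (4365 on the compared groups alone, main 6965), U0126 against PD-98059 in 3D (5447 with array weights, 1287 on the compared groups alone, 910 to 2032 with arrays left out, main 1957) and in 2D (500 after quantile normalization, 519 with array weights, 441 with the index, 438 without 3D HGF replicates 1 and 4, 69 on the compared groups alone, 165 to 312 with arrays left out, main 269), and U0126 against control in 2D (4426 with array weights, main 2821). Median centring moved the median of all probe sets by up to 0.12 and -0.13. Of 59 list gene results named by rule 10 changed side under at least 1 alternative, and the count of NF-kB pathway genes lower with HGF in 3D ran from 4 to 7 and of complement genes from 6 to 7. Levels under log2 5 limit VCAM1, SAA1 and C3 with HGF in 3D. A further fall of VCAM1, at a mean of 3.24 there, could not be read. For SAA1 (4.47 and 3.35) and C3 (3.73) a further fall could at most be read in part.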
